A study of Gallus gallus with 24 samples.

Results

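A group of 55 genes, of 30108 in the deposited table, had lower mean levels at both 6 h and 8 h than at both 4 h and 11 h in interdigital region 3 of the embryonic chicken hindlimb. The 55 were chosen for that dip from the levels themselves, so the dip is a description and was not tested. When 1 library at a time was kept out of the choice, the genes chosen without it were read in it. The readings were taken against the genes' own average of the 4 times, on the log2 scale. The 9 such libraries at 6 h and 8 h gave median deviations of -0.11 to 0.17, and the 12 at 4 h and 11 h gave -0.02 to 0.36. In the same libraries the median over all genes of 10 to 1000 CPM ran from -0.08 to 0.05 and from -0.05 to 0.19. Against the average of 4 h and 11 h, the 9 at 6 h and 8 h ran from -0.32 to -0.10 and the 12 others from -0.29 to 0.11. Only replicate 3 at 4 h was above 0. The genes were chosen to be high at 4 h and 11 h and low at 6 h and 8 h. Neither baseline is therefore independent of the choice. Levels are in CPM (counts per 1000000 reads assigned to genes) or in log2(CPM + 1).

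Interdigital region 3 is the mesenchyme between neighbouring digits. In the chick foot the cells of this tissue die as the digits separate. Bone morphogenetic proteins made in the interdigit promote that death, growth signals from the overlying ectodermal ridge hold it back, and reactive oxygen species accumulate in the dying region. The title of the study places this time course in work on bone morphogenetic proteins, reactive oxygen species and interdigital death.

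Eggs were incubated for 7 days and a further 4, 6, 8 or 11 hours in all, and the embryos are given as between stages HH30 and HH31. Each time has 6 of the 24 libraries. The labels name no genotype, strain or added agent. Nothing in them ties a library to 1 embryo, so the p-values below reflect only how these libraries spread, which may be technical. In whole tissue, fewer cells of a type and less RNA per cell cannot be told apart. The genes are known here only by Ensembl identifier. None could be paired with a name, a function or a sequence, so the tissue was not checked against marker genes and 5 identifiers are printed.

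The choice used 21 libraries. It left out replicate 5 at 6 h and replicates 2 and 5 at 8 h, which hold 690847 to 894326 reads, against 1794673 to 8134730 in the others. A gene was kept when its mean lay between 10 and 1000 CPM, which 7008 genes met. The higher of its 6 h and 8 h means on the log2(CPM + 1) scale also had to lie at least 0.3 below the lower of its 4 h and 11 h means, and that distance is called the gap here. This left 118 genes, of which 53 were removed because their pooled SD within times reached 0.6. A further 10 were removed because they differed by 0.4 or more between libraries high and low in ENSGALG00010011988. That gene has separate levels across libraries, 533.5 to 1024 CPM in the high ones and 3.62 to 9.42 CPM in the low ones. The same rule turned round, for genes higher at both 6 h and 8 h, found 33 genes.

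The dip of the 55 genes was shallow. Their median gap was 0.35 on the log2 scale, with a range of 0.30 to 0.80. The mean CPM over the 9 libraries at 6 h and 8 h was 0.448 to 0.803 of that over the 12 libraries at 4 h and 11 h, with a median ratio of 0.711. Over all 7008 genes of 10 to 1000 CPM the median ratio was 0.985. The pooled SD within times of the 55 genes had a median of 0.44 and a range of 0.24 to 0.59, and the gap exceeded that SD in 15 of them.

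**Figure D1:**
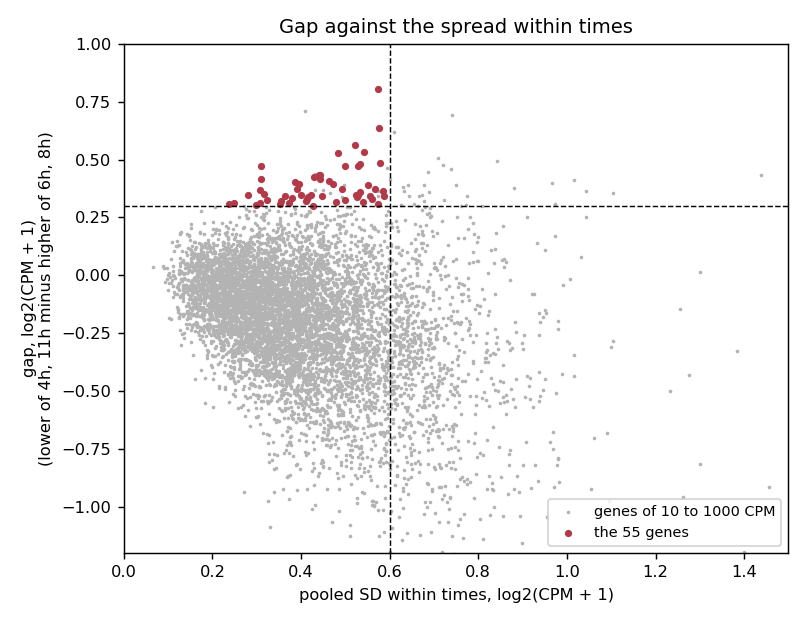
Each point is a gene of 10 to 1000 CPM, with its pooled SD within times on the x axis and its gap on the y axis, both in log2(CPM + 1); dashed lines mark 0.3 and 0.6, and 69 genes fall outside the axes. The 55 genes (red) lie above the main cloud, most of them close to the line at 0.3 with a median gap of 0.35. Grey points among them were removed for their difference between levels of ENSGALG00010011988.

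The threshold cut through a continuous range of values. The 3 genes just inside had gaps of 0.301, 0.303 and 0.306, and the 3 just outside that met every other criterion had gaps of 0.2959, 0.2966 and 0.2998. The 55 genes are 0.785% of the 7008, whereas a required gap of 0.2 would have kept 2.27% and one of 0.4 would have kept 0.243%, or 17 genes.

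Most of the 55 genes had low CPM, a scale that takes no account of transcript length. Their mean had a median of 23.3 CPM, against 33.3 CPM over the 7008 genes, and ran from 10.1 to 138.3 CPM. Below 20 CPM lay 25 of the 55, which is 1.25% of all genes of 10 to 20 CPM. Between 20 and 50 CPM lay 22, or 0.859% of such genes, and at 50 CPM or more 8, or 0.326%. The median gap was 0.39 in the lowest of these bands and 0.32 in the highest. The median number of reads of the 55 genes ran from 30 in replicate 6 at 6 h to 199 in replicate 4 at 4 h. The SD from counting error had a median of 0.15 over the 55 genes on the log2 scale. Its share of a gene's variance within times had a median of 12.2%.

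In no gene did the times separate library by library. All 9 libraries at 6 h and 8 h lay below all 12 at 4 h and 11 h in 0 of the 55 genes, and in 0% of the 7008 genes. All 9 lay below the median of the 12 in 13 of the 55, against 1.73% of the 7008. The rule used these same libraries, so nothing is read from that excess. In the remaining genes 6 to 8 of the 9 libraries lay below that median.

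**Figure D2:**
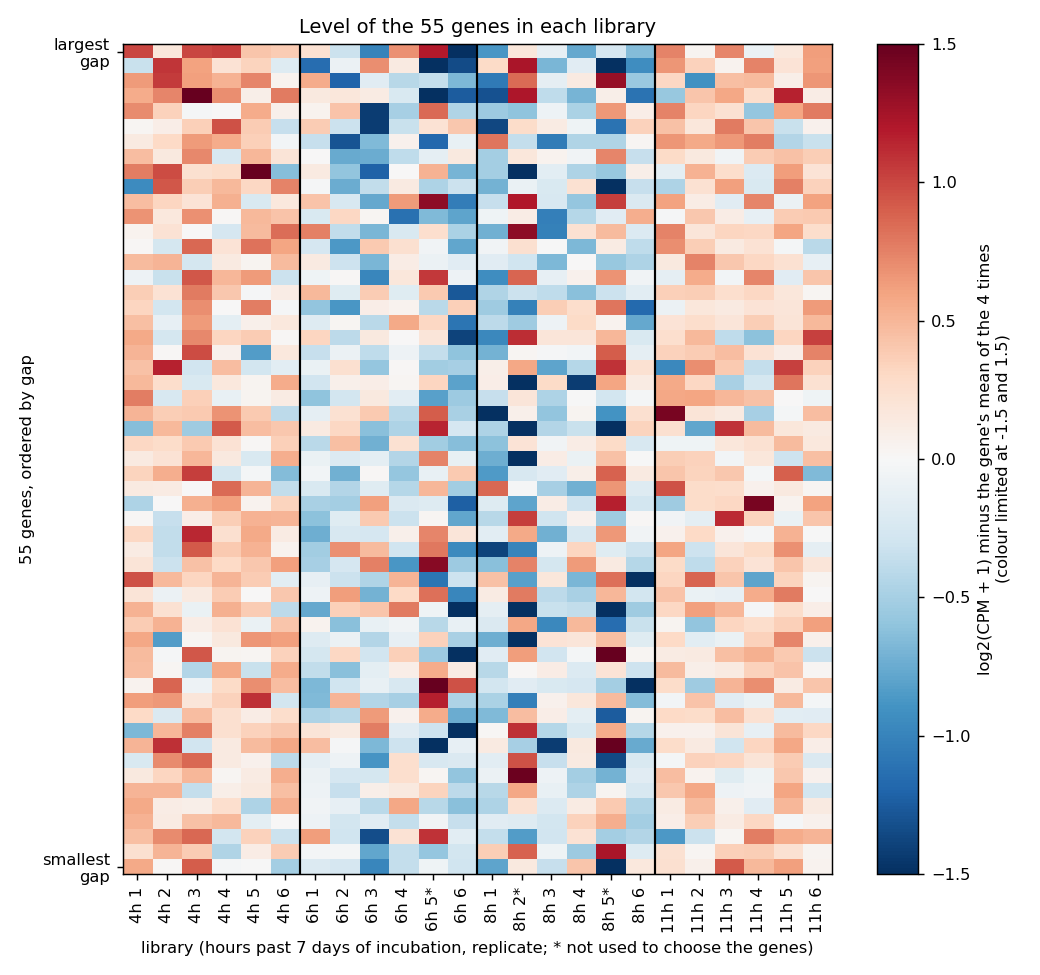
Rows are the 55 genes ordered by gap and columns the 24 libraries by time and replicate; colour gives log2(CPM + 1) minus the gene's mean of the 4 times, and stars mark the 3 libraries not used to choose the genes. The columns at 4 h and 11 h are mostly red. In the used columns at 6 h and 8 h, from 28 (replicate 4 at 6 h) to 48 (replicate 6 at 6 h) of 55 genes lie below 0. In the starred columns it is 27, 23 and 22 of 55. The rule requires low means at 6 h and 8 h, not low values in each library.

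The gene with the widest gap was ENSGALG00010015115, at 0.80. Its level at 4 h had a lowest value of 10.007, a median of 15.4 and a highest of 19.2 CPM, and at 11 h these were 8.26, 12.1 and 15.4 CPM. At 6 h the 5 libraries used stood at 10.5, 6.88, 3.90, 14.8 and 1.89 CPM. At 8 h the 4 libraries used stood at 4.36, 8.04, 4.78 and 5.25 CPM. These 4 lay below every library at 4 h and 11 h, whereas the 6 h libraries overlapped both times. The lowest value, in replicate 6 at 6 h, rests on 4 reads. The highest value in any library was in replicate 5 at 6 h, which the rule left out, at 21.4 CPM on 16 reads. The other libraries left out gave 10.1 and 7.24 CPM. With them the mean at 6 h moved from 7.59 ± 5.16 (SD, n = 5) to 9.89 ± 7.28 CPM (SD, n = 6), and at 8 h from 5.61 ± 1.66 (SD, n = 4) to 6.62 ± 2.22 CPM (SD, n = 6).

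ENSGALG00010013133 had the next widest gap, 0.63. It ran from 7.72 through a median of 12.2 to 22.1 CPM at 4 h and from 10.4 through 14.3 to 17.4 CPM at 11 h. The 5 libraries at 6 h gave 3.96, 9.27, 16.7, 11.0 and 3.31 CPM, and the 4 at 8 h gave 12.4, 5.80, 8.74 and 4.74 CPM. The times overlapped, with replicate 3 at 6 h near the top of the 11 h range. The libraries left out went both ways: 1.34 CPM in replicate 5 at 6 h on 1 read, 24.6 CPM in replicate 2 at 8 h on 22 reads, and 2.90 CPM in replicate 5 at 8 h on 2 reads.

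Apart from these genes, the widest differences between 11 h and the higher of the 6 h and 8 h means were both 0.60, in ENSGALG00010029619 and ENSGALG00010014334. ENSGALG00010029619 ran from 14.0 through a median of 15.5 to 21.2 CPM at 11 h and from 10.1 through 13.6 to 22.7 CPM at 4 h. It stood at 21.3, 9.27, 7.24, 10.3 and 8.51 CPM at 6 h and at 7.04, 5.58, 14.5 and 10.5 CPM at 8 h. Replicate 1 at 6 h was thus above all libraries at 11 h, while the other libraries used at 6 h were below them. The 3 libraries left out gave 14.7, 32.4 and 17.4 CPM, all within or above the range at 11 h.

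ENSGALG00010014334 ran from 25.9 through 31.4 to 41.1 CPM at 11 h and from 13.0 through 26.3 to 48.7 CPM at 4 h. The libraries used at 6 h stood at 18.9, 22.7, 18.4, 22.9 and 15.6 CPM and those at 8 h at 14.4, 23.9, 23.4 and 21.9 CPM. All 9 lay below all 6 at 11 h but within the range at 4 h. Of the libraries left out, replicate 5 at 6 h was at 18.7 CPM and replicate 2 at 8 h at 24.6 CPM, both below 11 h. Replicate 5 at 8 h was above it, at 46.3 CPM on 32 reads.

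**Figure D3:**
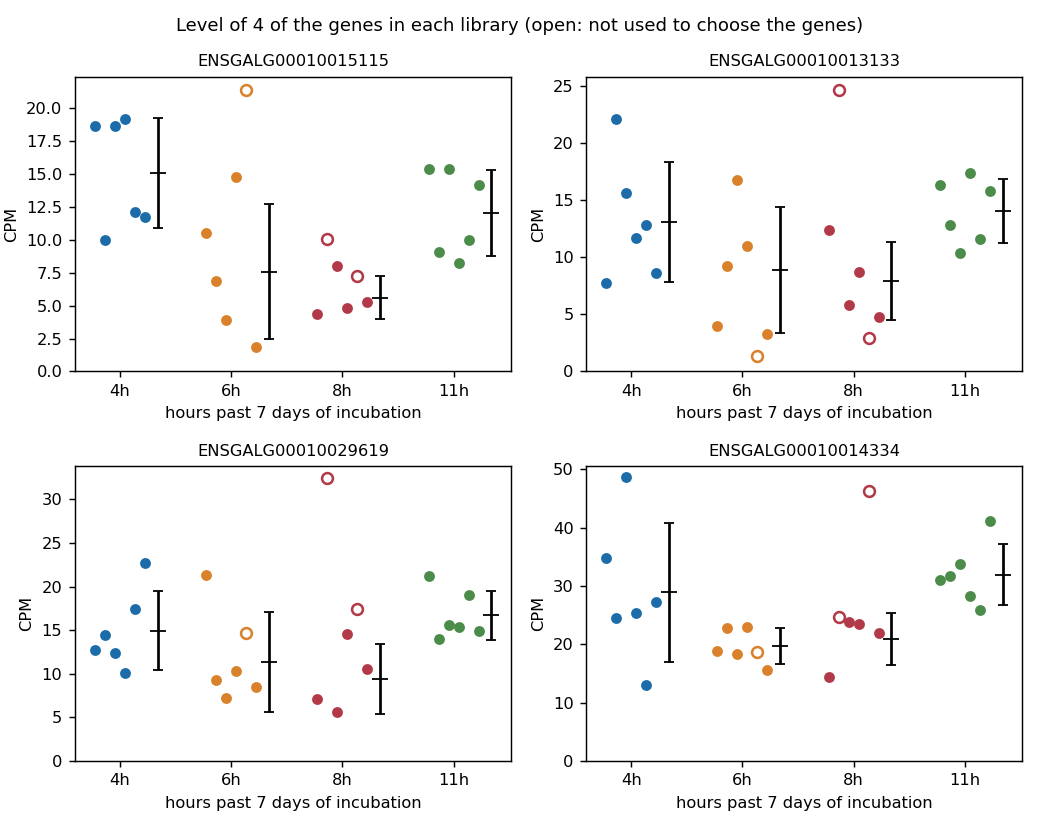
CPM of 4 of the 55 genes in each library, by hours past 7 days of incubation; filled points were used to choose the genes, open points were not, and black bars give the mean and SD of the filled points. The open points fall both above and below the filled ones of their time, from 1.34 CPM for ENSGALG00010013133 at 6 h to 46.3 CPM for ENSGALG00010014334 at 8 h.

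The 3 libraries that the rule left out are the only ones at 6 h and 8 h that had no part in it. Against each gene's mean of the 4 times, the median deviation of the 55 genes was 0.03 in replicate 5 at 6 h, 0.14 in replicate 2 at 8 h and 0.20 in replicate 5 at 8 h. The 9 libraries used at these times lay between -0.50 and -0.05. Below their mean of the 4 times were 27, 23 and 22 of the 55 genes in the libraries left out, against 43.8%, 47.5% and 47.3% of the 7008 genes. Set against the mean of 4 h and 11 h instead, the medians were -0.20, -0.18 and 0.01, while the median of the 7008 genes was 0.09, 0.02 and 0.03. The 4 h and 11 h levels of the 55 genes were themselves chosen to be high, so that baseline is not independent of the rule. Nor is the mean of the 4 times, since it includes 6 h and 8 h means that were chosen to be low. Dividing by scaling factors (TMM) moved the median of all 7008 genes in these libraries to -0.23, -0.19 and -0.17. Relative to that median the 55 genes were at -0.28, -0.20 and -0.03 with or without the factors. These libraries hold a median of 17 to 22 reads per gene of the 55, so single genes are poorly measured in them. When all 24 libraries entered the rule, 53 genes met it, of which 13 were among the 55.

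Each of the 21 libraries was then left out of the choice in turn and read for the genes chosen without it. The genes chosen numbered 45 to 68, of which 30 to 47 were among the 55. At 6 h and 8 h the left-out library lay at a median deviation of -0.11 to 0.17 from the mean of the 4 times, with a median of 0.01 over the 9 libraries. At 4 h and 11 h it lay at -0.02 to 0.36, with a median of 0.11 over the 12 libraries. The median over all genes of 10 to 1000 CPM ran from -0.08 to 0.05 in the former libraries and from -0.05 to 0.19 in the latter. Over the libraries of each side that value had a median of 0.02. The ranges of the 2 sides overlapped, and the difference between them was not tested, since the choices share most libraries. Against the mean of 4 h and 11 h the left-out libraries lay at -0.32 to -0.10 at 6 h and 8 h. At 4 h and 11 h they lay at -0.29 to 0.11, and only replicate 3 at 4 h was above 0. The chosen genes had to be high at 4 h and 11 h, so nothing is read from the signs against that baseline. The mean of the 4 times includes 6 h and 8 h means that had to be low. Readings against it therefore also depend on the choice. Replicate 6 at 6 h, the lowest library inside the choice at -0.50, stood at -0.11 outside it, and replicate 4 at 8 h went from -0.06 to 0.17. Replicate 6 at 6 h also weighed most on membership, since only 30 of the 55 genes were chosen again without it.

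**Figure D4:**
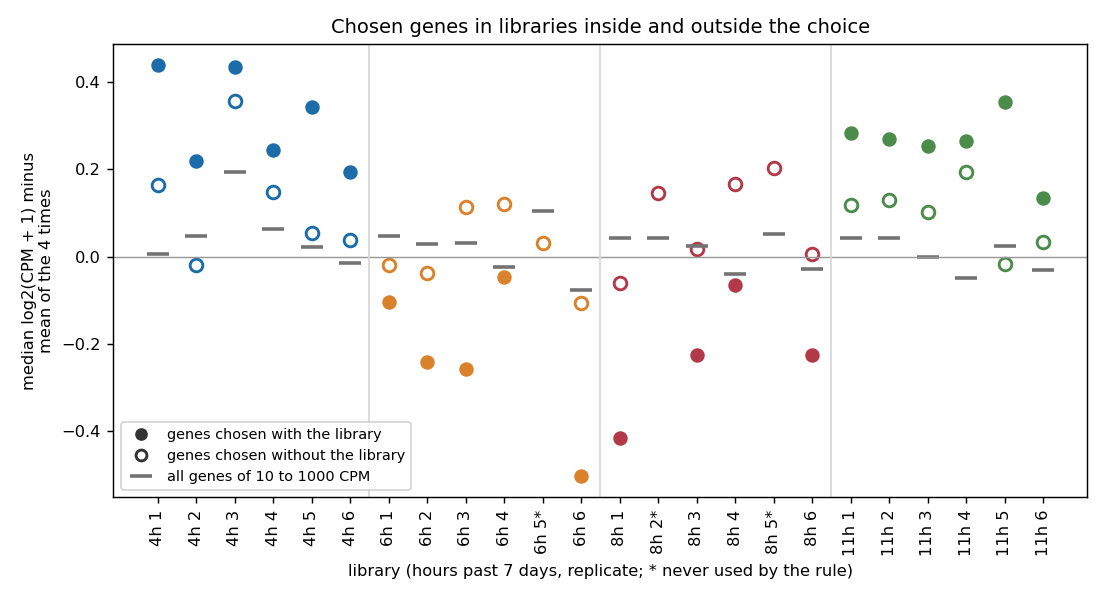
Median over the chosen genes of log2(CPM + 1) minus the mean of the 4 times, per library; filled points are the 55 genes in libraries that helped choose them, open points are genes chosen without that library, and grey dashes are all genes of 10 to 1000 CPM. Filled points at 6 h and 8 h run from -0.50 to -0.05, while the open points there run from -0.11 to 0.20 and include the 3 starred libraries the rule never used.

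Library numbers in the labels run together with time. The 12 libraries at 4 h and 11 h carry the lower run of numbers, and so do replicate 1 at 6 h and replicate 6 at 8 h, while the other 7 used at 6 h and 8 h carry the upper run. The labels do not say that the numbers mark a batch. Against the mean of 4 h and 11 h, the 55 genes had a median of -0.31 in replicate 1 at 6 h and -0.46 in replicate 6 at 8 h. The 9 libraries ran from -0.77 to -0.31, and replicate 1 at 6 h is itself the upper end of that range. Both low-numbered libraries are among the 9 and took part in the choice. The rule applied without them found 71 genes, 37 of them among the 55. For these 71 genes the medians were -0.23 and -0.28 against 4 h and 11 h, and 0.09 and -0.04 against the mean of the 4 times. Below that mean were 31 of the 71 in replicate 1 at 6 h, against 43.8% of all genes of 10 to 1000 CPM, and 37 of the 71 in replicate 6 at 8 h, against 53.1%. Neither baseline is independent of the choice of the 71. With 1 library of low number at each of 6 h and 8 h, time and library number cannot be told apart.

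Depth differed between the times and among the libraries of the dip. The 9 libraries used at 6 h and 8 h averaged 4319121 ± 1813030 reads and the 12 at 4 h and 11 h 5107255 ± 1462718 (SD). Of the 9, the 4 with 5624826 reads or more had medians of -0.46 to -0.31 against 4 h and 11 h, and the 5 shallower ones -0.77 to -0.47. These 9 took part in the choice, so nothing is read from that split. Read for genes chosen without each library, the 4 ran from -0.28 to -0.10 and the 5 from -0.32 to -0.13. The shallowest libraries of all, those the rule left out, had -0.20 to 0.01 for the 55 genes. They took no part in the choice, so they cannot be set on a scale of depth with the 9. The part of depth in the dip was not tested.

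The level of ENSGALG00010011988 was uneven as well, being high in 7 of the 12 libraries at 4 h and 11 h and in 3 of the 9 used at 6 h and 8 h. Within the limit of 0.4 that the rule sets, 43 of the 55 genes had higher means in the libraries high in it. Among the 7008 genes it was 49.2%, and the median difference of the 55 was 0.17. The 55 were chosen to be high at 4 h and 11 h, where a larger share of libraries is high in ENSGALG00010011988. That split favours such differences, so nothing is read from the excess. The difference between 6 h and 8 h on one side and 4 h and 11 h on the other had a median of -0.51 over the 55 genes in the libraries high in ENSGALG00010011988 alone and -0.47 in the low ones alone, against -0.48 in all 21. These are the libraries of the rule, so the values describe the choice.

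Across all genes no contrast passed a test. For 6 h and 8 h against 4 h and 11 h, 0 of 13783 genes, or 0%, had an adjusted p under 0.05 (limma, all 24 libraries), and so did 0 of the 55. Limma-voom called 0 as well. Before adjustment, 1158 genes by limma and 946 by limma-voom had a p under 0.05. Of the 55 genes 41 were lower at that unadjusted level, against 6.49% of all genes tested. This contrast is the one the rule used, and nothing is read from the count. In either direction, limma with scaling by library size only gave 25 of the 55, against 991 of all 13783 genes tested. With library number as a term in the fit it was 6 of 55, against 190 of 13783. In that fit the median log2 difference of the 55 genes was -0.38 in place of -0.49 and their median SE 0.40 in place of 0.21. Below 0 were 53 of the 55 differences, against 6481 of 13783 over all genes tested. Without the term these counts were 55 and 8715. The 55 were chosen on this contrast, so nothing is read from their signs.

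The rule used the 4 h and 11 h means and required both to stand above 6 h and 8 h, which works against large differences between them. The values for 11 h against 4 h are therefore a description. By limma 0 of the 55 passed an adjusted p under 0.05, against 0% of all 13783 genes, and limma-voom also gave 0. Before adjustment, a p under 0.05 was found in 0 of the 55, against 3.80% of all genes (524 by limma, 1004 by limma-voom). The log2 differences ran from -0.38 to 0.295. The whole 95% interval was narrower than a 2-fold change either way in 47 of the 55 genes and than 1.5-fold in 13. The limit of the rule on the pooled SD favours narrow intervals, so nothing is read from these counts. The fitted log2 values were -0.24 ± 0.37 for ENSGALG00010015115 and 0.28 ± 0.25 for ENSGALG00010014334 (SE), each with an adjusted p of 0.999 by limma.

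Between 6 h and 8 h the genes went either way, and the balance differed between the libraries and scaling used. With library size only and 21 libraries, the mean at 8 h was below that at 6 h in 32 of the 55 and above it in 23, against 49.0% below among the 7008 genes. In the limma fit of all 24 libraries with TMM factors it was below in 21 and above in 34, against 52.1% below among all genes tested. In that fit 0 of the 55 passed an adjusted p under 0.05, against 0% of all genes, and limma-voom gave 0. Before adjustment, a p under 0.05 was found in 5 of the 55, 3 lower and 2 higher at 8 h, against 8.48% of all genes (1169 by limma, 652 by limma-voom). That 5 became 1 without replicate 5 at 8 h, 2 without replicate 5 at 6 h and 3 without replicate 2 at 8 h. It was 0 without all 3 of these shallow libraries or by limma-voom. Leaving out any other library gave 3 (replicate 2 at 6 h) to 6 (replicate 1 at 8 h). Over all genes tested the count was 1033 of 13721 without replicate 5 at 8 h and 909 of 13891 without all 3. The 95% interval lay within 2-fold for 37 of the 55, a count that the limit on the pooled SD also favours. ENSGALG00010013133 differed by 0.38 ± 0.43 (SE, adjusted p = 0.843, limma) and ENSGALG00010029619 by 0.17 ± 0.32 (SE, adjusted p = 0.92, limma), a difference that turned negative without replicate 2 at 8 h.

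Within a time the 55 genes were correlated with each other little more than other pairs of genes. With the time means removed, the correlation between 2 of them over the 21 libraries had a median of 0.05 and quartiles of -0.13 and 0.22. Over all pairs of the 7008 genes the median was 0.02 and the quartiles -0.16 and 0.20. Of the pairs among the 55, 16.2% exceeded 0.3, and of all pairs 14.9%. The rule limited the pooled SD and the difference by level of ENSGALG00010011988 in the 55 genes. The 7008 had no such limits, so the 2 sets are not matched. These correlations share libraries and depth and are given as a description.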

How the data were processed

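The 24 RNA libraries were built with the Lasy-Seq protocol, per the labels. Tools listed, per the submitters' processing notes, are Salmon, BWA 0.7.17-r1188 and fastp 0.21.0. No source used here gives their roles, a build or an annotation. The authors deposited natural log values, ln(CPM + 1), since exp(value) - 1 summed to 1000000 in every library. Of 406811 values above 0, 99.9988% were whole reads within 0.01 read, which gave 690847 to 8134730 reads per library.

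The design had foreseen this log scale. Members were found on log2(CPM + 1). For the tests, CPM were divided by TMM factors (30% of M and 5% of A trimmed) from the recovered reads, and limma 3.58.1 in R 4.3.3 with an intensity trend was fitted to all 24 libraries. Genes needed 2.26 CPM in 6 libraries and 15 reads in all; the 55 members all passed. P-values were adjusted by Benjamini-Hochberg over 13783 genes. The fit was checked on simulated counts. Alternatives were other scaling, filters, pseudocounts, left-out libraries, limma-voom, a library number term and the replicate number as a block. No 2 libraries of a time were copies (chi-square per degree of freedom at least 8.08).

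The members and lists were chosen with earlier results of these data known. Named identifiers were the 2 members with the widest gap, the 2 others with the largest rise to 11 h, and the gene in the rule. The reference table matched 0 identifiers, so gene lists and cell type markers were not evaluated.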

Additional observations from a re-analysis of the deposited data

Results flagged for a closer look

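Among 24 sets of 6 libraries (depth, the median deviation of the 55 genes and the 4 named members at each time), 1 held a value far from the others, where chance gives about 1 in 20. Replicate 5 at 8 h gave 46.3 CPM for ENSGALG00010014334, whereas the remaining 5 libraries at 8 h gave 14.4 to 24.6 CPM. The value rests on 32 reads, in the shallowest library of all (690847 reads), which the choice of the 55 genes left out.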

How the results depend on the processing

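The 0 calls for 6 h and 8 h against 4 h and 11 h held in 34 of 35 alternatives, and leaving out each replicate in turn gave 0 to 1 (1 without replicate 5 at 4 h, and it was none of the 55). For 11 h against 4 h they held in 34 of 36, with 0 to 1 over left-out replicates (1 without replicate 4 at 6 h) and 5 when only the 4 h and 11 h libraries were fitted, 0 of them among the 55. For 8 h against 6 h they held in 34 of 36, with 0 to 1 over left-out replicates (1 without replicate 2 and 1 without replicate 4 at 8 h). With the replicate number as a block, 0 genes passed in each contrast. Deviations correlated above 0.1 in 9 of 36 same-numbered pairs, and 3 of 24 libraries correlated best with their own number. Pairs of different numbers were not counted beside these, so the check cannot settle whether the number pairs libraries. A library number term left 190 genes with an unadjusted p under 0.05 for 6 h and 8 h against 4 h and 11 h, against 1158 without it, while the median SE over all genes went from 0.28 to 0.54. Of these 1158 genes 895 were lower; with scaling by library size only it was 605 of 991. Genes meeting the rule were 0.641% to 0.967% of those of 10 to 1000 CPM over left-out replicates, against 0.785%. They were 0.243% at a gap of 0.4 and 2.27% at 0.2. The median gap of the genes chosen anew was 0.26 to 0.47 over 29 alternatives, with the ends at required gaps of 0.2 and 0.4. The rule holds that value above its threshold, so nothing is read from it. For the 55 genes themselves the median gap was 0.21 to 0.38. It was lowest with all 24 libraries, where 20 of the 55 still met the gap and the lowest gap was -0.084. With TMM factors the medians of the 55 genes against 4 h and 11 h were -0.50, -0.39 and -0.20 in the 3 libraries left out. For genes chosen without the low-numbered libraries, replicate 6 at 8 h moved to -0.16 with TMM factors and -0.19 at a pseudocount of 5 against 4 h and 11 h, and to 0.11 and 0.082 against the mean of the 4 times. For ENSGALG00010029619 the difference of 8 h against 6 h reversed to -0.17 without the 3 libraries left out, -0.19 by limma-voom and -0.066 without replicate 2 at 8 h; it was 0.37 without both low-numbered libraries. The cause was not tested. The left-out reading of libraries and the fits without both low-numbered libraries were chosen after seeing the data. The planned count-model test was not run, and limma-voom on the recovered reads was. Depth limits single genes most in the 3 shallow libraries, with 17 to 22 reads in the median member, and also in replicates 3 and 6 at 6 h, with 31 and 30.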
